A study of Homo sapiens with 6 samples.

Results

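The aryl hydrocarbon receptor (AHR) pathway was followed through 6 genes: CYP1B1, CYP1A1, AHR, AHRR, ARNT and TIPARP. They are 6 of the 19775 genes measured, taken by symbol, and 15 of the 54675 probe sets on the arrays carry one of these symbols alone. The 6 were chosen with earlier results of these arrays known, so their p-values, counts and ranks below are no independent test. Where a gene has several probe sets, the one with the highest mean over the 6 arrays stands for it and the others are given beside it. The cells were CaSki, an established line of human cervical squamous carcinoma, grown in serum-containing medium. Of the arrays, 3 came from cells given recombinant TGF-β1 at 2 ng/mL and 3 from cells in medium without it, and all 6 are of this 1 cell line. The study asked how TGF-β1 changes expression in these cells. The labels name no AHR ligand and no treatment time. They do not say whether the arrays of a group came from separate cultures, so p-values measure the spread between these arrays, which may be technical.

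AHR is a cytosolic receptor of the bHLH-PAS family that binds planar aromatic compounds and tryptophan-derived metabolites. Once bound by a ligand, it leaves its chaperone complex, enters the nucleus, pairs with ARNT and binds response elements in its target genes. CYP1A1 and CYP1B1, enzymes that oxidise polycyclic hydrocarbons and oestrogens, are its best known targets, and AHRR and TIPARP are induced by it and restrain it in turn. In squamous epithelium the pathway is known for its part in the handling of environmental toxicants and in keratinocyte differentiation.

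The start regions of the receptor gene and of its classical target are shown because AHR is the member with an entry in the promoter table that changed, while CYP1A1 is the textbook target. The 250 bases before the annotated start site are printed 5′ to 3′ on the strand of the gene, from RefSeq with build GRCh38.p14. Capitals mark the core of the AHR response element, GCGTG, on either strand (CACGC on the other).
AHR promoter, chr7:17298402-17298651, plus strand: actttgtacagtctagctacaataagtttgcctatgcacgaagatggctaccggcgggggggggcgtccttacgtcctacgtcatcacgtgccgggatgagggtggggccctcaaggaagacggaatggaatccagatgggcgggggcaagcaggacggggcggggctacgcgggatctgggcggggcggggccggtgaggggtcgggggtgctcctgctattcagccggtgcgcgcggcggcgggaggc
CYP1A1 promoter, chr15:74725529-74725778, minus strand: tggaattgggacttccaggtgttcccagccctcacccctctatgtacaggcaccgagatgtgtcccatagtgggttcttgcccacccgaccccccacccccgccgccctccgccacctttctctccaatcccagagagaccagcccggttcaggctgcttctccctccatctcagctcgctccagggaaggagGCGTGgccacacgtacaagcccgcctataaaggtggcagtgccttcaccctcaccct
The CYP1A1 window held 1 match, which begins 57 bases before the start site. The AHR window held 0, as did that of ARNT. Each of the 2 AHRR windows held at least 1 match (1 and 2), and the first of the 3 TIPARP windows held 2. Of 35116 promoter windows of the same length, 32.2% held the core. CAGAC, a core bound by SMAD proteins (GTCTG on the other strand), was in 38% of all windows and, among those of the members, only in the second AHRR window, 69 bases before the start. The promoter table matched 5 of the 6 members; the other member is CYP1B1. A match describes letters and is not evidence of a bound site.

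Of the 6 genes, 2 fell with TGF-β1, CYP1B1 and AHR, 0 rose and 4 did not pass the test, nor an unadjusted p below 0.05 (limma, Benjamini-Hochberg adjusted p below 0.05 over all 19775 genes). Of all genes tested, 8.50% were called, 4.47% as falls and 4.03% as rises. The treated and untreated values did not overlap for the same 2 members, with treatment below, against 16.3% of all genes in that direction and 29.2% in either. The median difference of the 6 was -0.05 on the log2 scale, beside 0.00 for all genes. With 6 genes, these shares are counts and show nothing particular to the pathway. All levels below are log2 RMA values, and every difference is treated minus untreated on that scale.

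CYP1B1, the P450 enzyme that hydroxylates oestradiol and activates polycyclic hydrocarbons, fell by 1.64, to less than its untreated level on every array. The untreated arrays read 8.94, 8.89 and 8.82 and the treated arrays 7.20, 7.26 and 7.26. The arrays of a group lay within 0.125 and 0.064 of each other, while 1.56 separated the lowest untreated from the highest treated array. The mean went from 8.88 ± 0.0625 to 7.24 ± 0.0361 (SD, n = 3 each), a 3.12-fold fall with a 95% interval of the difference from -1.81 to -1.48 (limma adjusted p = 1.9e-05). By size it stood at place 6 among the 884 genes that fell. An exact two-sided permutation test over the arrays gave p = 0.1, the smallest that 3 against 3 arrays allow. In bulk RNA, fewer cells carrying a transcript and less of it per cell cannot be told apart.

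The fall was seen by 3 of the 4 CYP1B1 probe sets. A second one read 8.66, 8.36 and 8.24 on untreated and 6.85, 6.90 and 6.82 on treated arrays. It fell by 1.57 (limma over all 54613 probe sets that are not controls, adjusted p = 2.1e-04; 3.24% of those were called). The third read 8.43, 8.33 and 8.32 untreated and 6.48, 6.67 and 6.67 treated, a fall by 1.75 (adjusted p = 3.1e-05). The third set fell by 0.111 more than the representative: within an array the representative read 0.497 to 0.552 above it on untreated and 0.589 to 0.714 above it on treated arrays, with no overlap. The second set overlapped both others when compared in this way. Exact two-sided permutation tests of the 3 pairs gave p = 0.1 for that first pair, the smallest possible, and 0.3 and 0.4 for the others, a design that cannot reach 0.05. The fourth read 3.47, 3.60 and 3.81 untreated and 3.42, 3.73 and 3.60 treated. It differed by -0.04 with a 95% interval from -0.31 to 0.22 (adjusted p = 0.90) and lay below the median of all probe sets, 4.156. The transcript that each set reads was not looked up. All 4 carry the suffix _s_at, which marks probes that match more than 1 transcript, so CYP1B1 has no value when such sets are left out. CYP1B1-AS1, a non-coding RNA named as antisense to the gene, read 3.75, 3.78 and 3.77 untreated and 3.91, 3.81 and 3.85 treated, all below that median, and did not pass (adjusted p = 0.48, limma). Averaged over all 4 sets, CYP1B1 was 2.38-fold lower (adjusted p = 3.9e-05).

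AHR, the receptor itself, fell as well, but by less. Untreated arrays read 6.46, 6.65 and 6.51, and treated arrays 6.07, 5.98 and 5.83. Every treated array was below every untreated one, with a gap of 0.388 between the groups. The mean went from 6.54 ± 0.0992 to 5.96 ± 0.123 (SD, n = 3 each), a fall by 0.58 with a 95% interval of the difference from -0.79 to -0.37 (adjusted p = 0.0075, limma). It stood at place 197 among the 884 falls by size. AHR has 1 probe set on the array, so no second set checks this value.

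**Figure D1:**
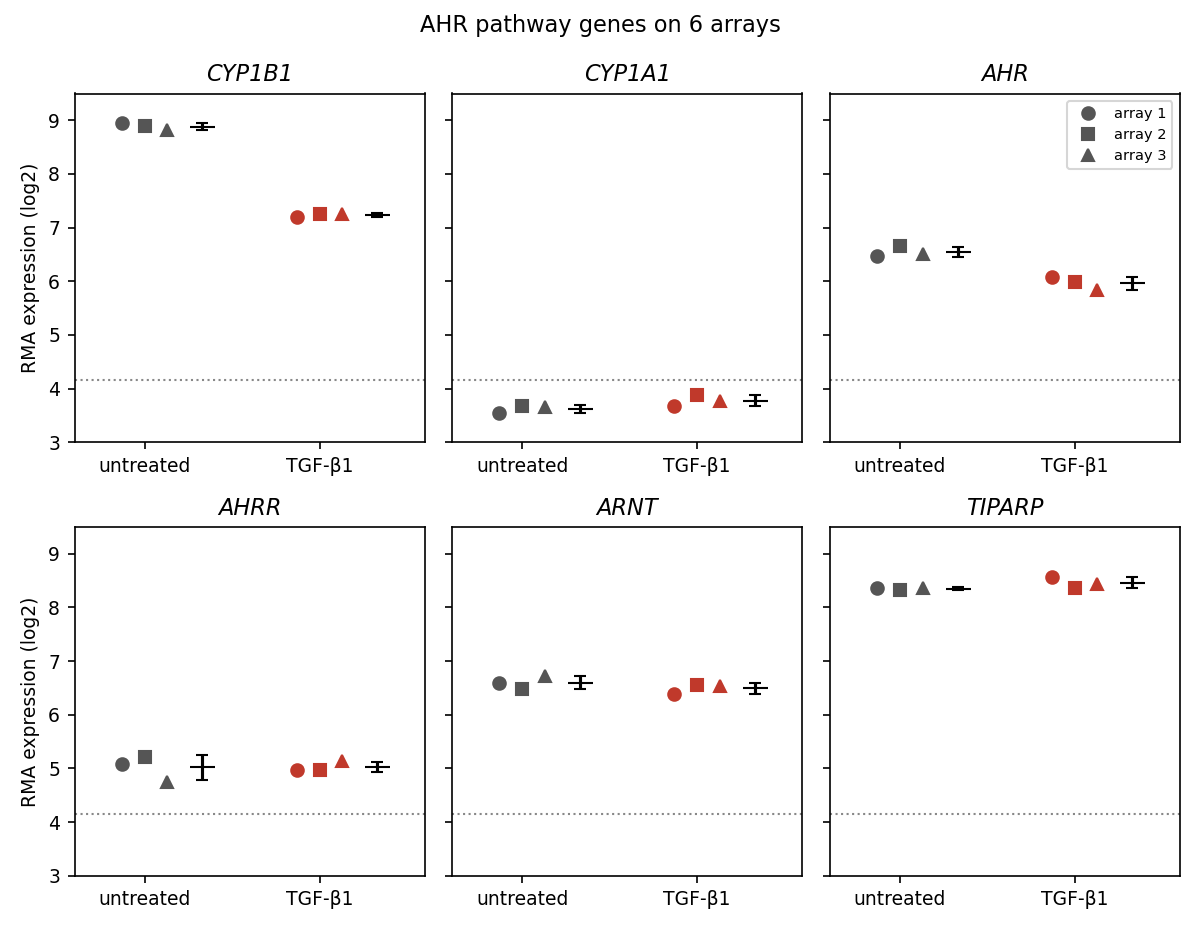
RMA expression (log2) of each of the 6 genes on the 3 untreated (grey) and 3 TGF-β1 (red) arrays, with the array number as the symbol, the mean and SD in black beside them, and the median of all probe sets, 4.156, as a dotted line. The groups are separate for CYP1B1 and AHR and overlap for the other 4 genes, and CYP1A1 lies below the dotted line on every array.

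Both falls passed the test without any single array. The CYP1B1 fold ran from 3.06 to 3.19 (adjusted p up to 2.7e-04) and the AHR fold from 1.43 to 1.56 (adjusted p up to 0.0356). RNA quality was read from how far the 3′ signal of GAPDH and ACTB exceeds the 5′ signal, which was 1.19 and 1.15 (log2) on the arrays numbered 1 and 0.690 to 0.863 on the others. With that signal as a covariate CYP1B1 fell by 1.64 (adjusted p = 1.3e-04) and AHR by 0.57 (adjusted p = 0.0151). Without both arrays numbered 1 they fell by 1.59 and 0.68 (adjusted p = 0.0027 and 0.0343).

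**Figure D2:**
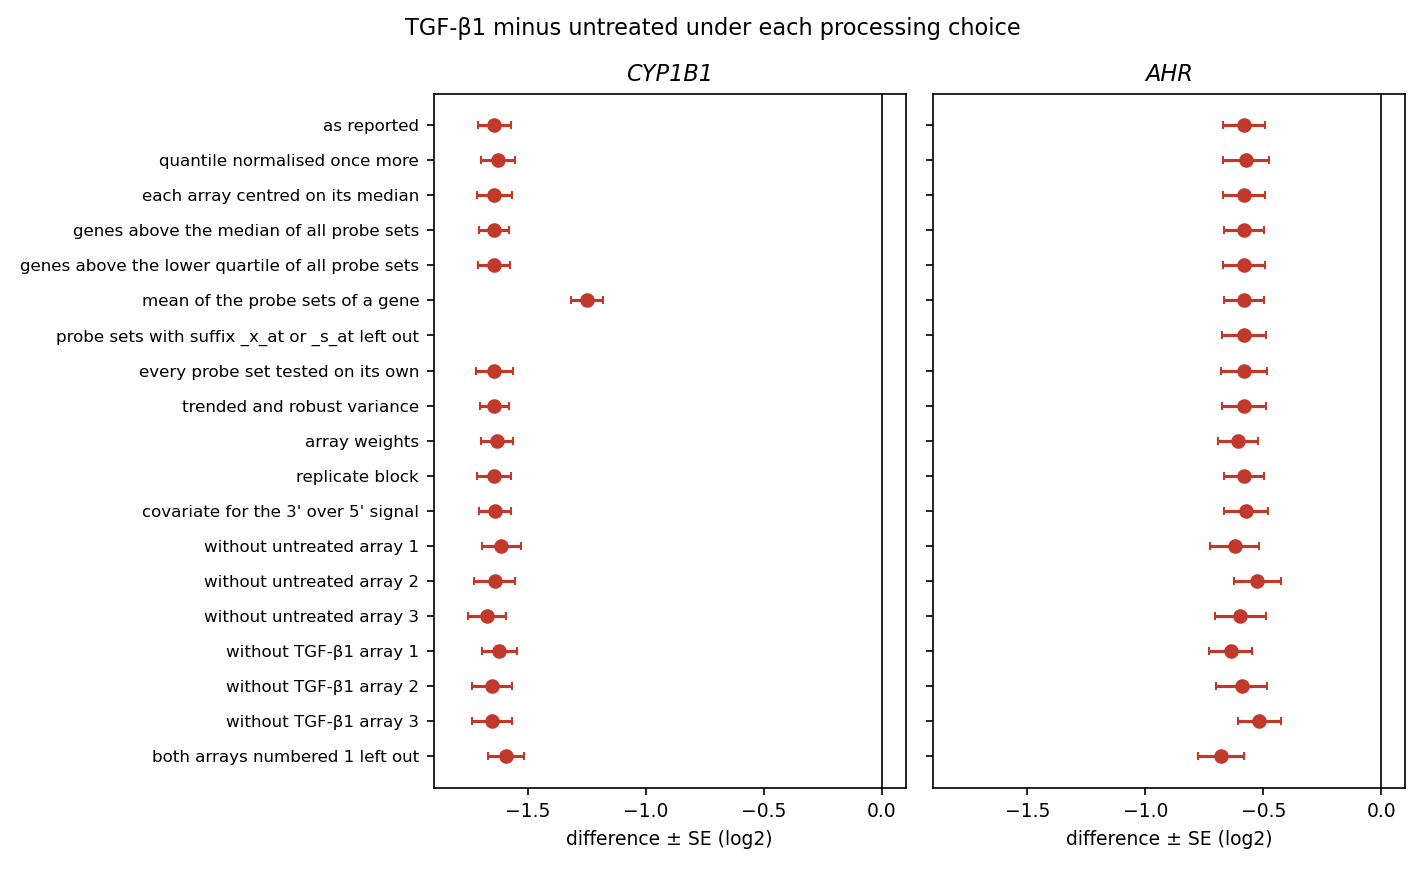
Difference between TGF-β1 and untreated arrays (log2) with its moderated standard error for CYP1B1 (left) and AHR (right), 1 row per processing choice, with red for an adjusted p below 0.05. CYP1B1 lies between -1.68 and -1.25 and AHR between -0.68 and -0.52 under every choice that gives a value, and CYP1B1 has none when probe sets with shared sequence are left out.

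CYP1A1, the classical target of the receptor, was dim in both groups. It read 3.54, 3.68 and 3.66 on untreated and 3.67, 3.88 and 3.76 on treated arrays, all below the median of all probe sets. The groups overlapped narrowly, and the means of 3.63 ± 0.0755 and 3.77 ± 0.104 (SD, n = 3 each) differed by 0.14 with a 95% interval from -0.05 to 0.33 (adjusted p = 0.35, limma). RMA compresses differences at such levels and no detection call was available, so a change in a scarce transcript may not show. The third enzyme of the family, CYP1A2, differed by -0.01 (adjusted p = 0.96) at a mean of 4.61 in untreated cells.

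TIPARP, a mono-ADP-ribosyltransferase that modifies and restrains AHR, did not pass. Untreated arrays read 8.36, 8.32 and 8.37 and treated arrays 8.57, 8.37 and 8.43. The second treated array lay just under the highest untreated one and the other 2 treated arrays lay above all untreated arrays. The difference was 0.11 with a 95% interval from -0.07 to 0.28 (adjusted p = 0.46, limma).

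AHRR, the repressor that competes with AHR for ARNT, read 5.08, 5.22 and 4.75 on untreated and 4.97, 4.98 and 5.14 on treated arrays. The treated values lay within the untreated range. The difference was 0.01 with a 95% interval from -0.27 to 0.29 (adjusted p = 0.97, limma), the widest interval of the 6 genes, and its sign turned without untreated array 3 (-0.12) or treated array 3 (-0.04).

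ARNT, the partner that AHR needs to bind DNA, read 6.59, 6.48 and 6.73 on untreated and 6.38, 6.55 and 6.54 on treated arrays. The groups overlapped, with a difference of -0.11 whose 95% interval went from -0.32 to 0.10 (adjusted p = 0.52, limma). ARNT has 7 probe sets, of which 4 were higher and 3 lower on the treated arrays, between -0.26 and 0.24. Of the 7, 0 passed limma (adjusted p of at least 0.34) and 0 reached an unadjusted p below 0.05, and 4 lay above the median of all probe sets. The intervals of TIPARP, AHRR and ARNT exclude a fall of the size seen for CYP1B1 in their representative sets, and a p above the threshold does not show that these genes did not differ.

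**Figure D3:**
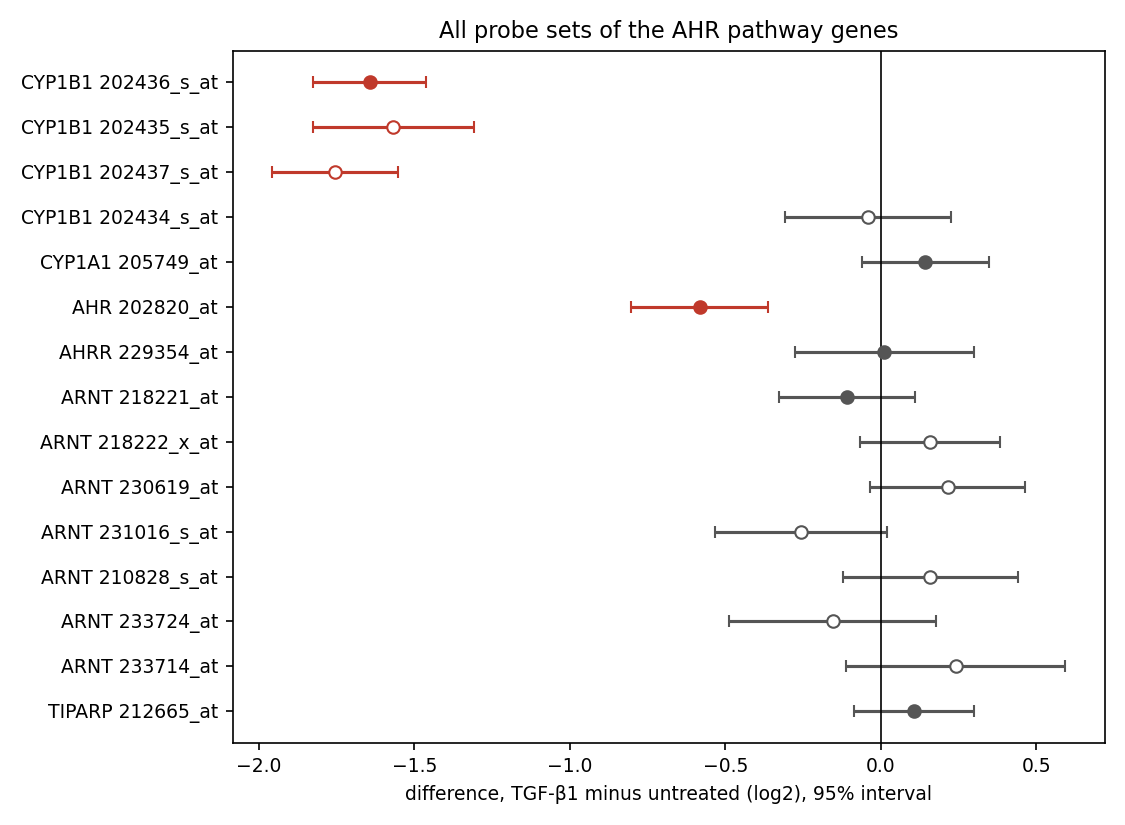
Difference between TGF-β1 and untreated arrays (log2) with its 95% interval for all 15 probe sets of the 6 genes, from the fit over all probe sets. Filled circles are the representatives, and red marks an adjusted p below 0.05. The 3 bright CYP1B1 sets lie between -1.75 and -1.57 and AHR at -0.58, while the fourth CYP1B1 set and all sets of CYP1A1, AHRR, ARNT and TIPARP have intervals that include 0.

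The cells carried squamous and epithelial genes in both groups, and 8 of the 11 markers were measured under a single symbol. Their summed linear signal was 19430 to 21490 on untreated and 19140 to 21440 on treated arrays, with 1 rise (KRT14, 1.71-fold) and 1 fall (EPCAM, 1.62-fold). Most of each sum was SFN, which read 13.6 in both group means, so the sum says little about the other markers. PKP1 and DSG3 were the dimmest, at mean levels of 4.40 and 4.80. Of 7 fibroblast markers, 1 rose, COL1A1, and the summed signal went from between 293 and 349 to between 718 and 814. Most of that sum and of its rise was COL1A1, which read 7.80 and 9.37 in the group means. The other 6 differed by -0.14 to 0.39 and did not pass. In mean level COL1A1, DCN, THY1 and PDGFRB lay above the median of all probe sets and LUM, COL1A2 and COL3A1 below it. Of 5 immune markers 0 were called by limma (2 at an unadjusted p below 0.05), and their summed signal was 96.4 to 103 on untreated and 104 to 125 on treated arrays. CSF1R read 5.42 and 5.78 in the group means, CD163 3.43 and 3.74, CD3E 4.74 and 4.81, CD14 3.58 and 3.57, and PTPRC, the pan-leukocyte marker, 2.76 and 2.57. Of 5 endothelial markers 1 rose and 1 fell, KDR and CDH5, both below that median, and the summed signal was 120 to 124 and 117 to 135. PECAM1, TEK and VWF lay above the median, at mean levels of 5.67, 5.09 and 4.57, and did not pass. The part of any of these in the CYP1B1 and AHR values was not tested. Arrays of 1 group correlated at r of 0.994 to 0.996 and arrays of different groups at 0.992 to 0.993.

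Beyond the 6 members, 127 genes in 8 lists around the pathway were measured. Of these, 8 rose, 10 fell and the others did not pass, which is 14.2% called against 8.50% of all genes, and the median difference was -0.01. Of the 18 calls, 6 held without any single array (KYNU, CYB5A, HSD17B2, NCOA7, PTGS2 and SULT1E1), and 5 failed whichever array was left out (CDKN1B, CYP26B1, CYP4F11, IL6 and NRIP1). The lists were chosen with earlier results of these arrays known, so their counts describe and do not test.

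Of 17 measured chaperones and coregulators of the receptor, 1 fell and 1 rose, or 11.8% called beside 8.50% of all genes. The median difference was 0.02. The groups did not overlap for 11 of the 17, beside 29.2% of all genes. By limma 9 of the 17 had an unadjusted p below 0.05, beside 4584 of 19775 genes. The 2 calls became 5 above the lower quartile of all probe sets, 6 above the median and 8 with a trended robust variance. They became 1 without suffixes _x_at and _s_at and 1 with single probe sets. NCOA7, a nuclear receptor coactivator, fell 1.45-fold from 8.68 ± 0.125 to 8.14 ± 0.0156 (SD, n = 3 each, limma adjusted p = 0.0072). Its dimmer sets differed by -0.12 and -0.17 and did not pass. NRIP1, a nuclear receptor corepressor, rose by 0.36 (adjusted p = 0.0236), a call that failed whichever array was removed (highest adjusted p 0.0838). The chaperone genes HSP90AA1, HSP90AB1 and PTGES3 differed by -0.13, -0.17 and -0.24 and did not pass (limma adjusted p = 0.31, 0.49 and 0.12). All treated arrays lay below the untreated ones for HSP90AA1 and PTGES3, while the groups overlapped for HSP90AB1.

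Of 8 measured genes listed for the AHR drug metabolism battery, 1 fell and 0 rose, or 12.5% called beside 8.50% of all genes. The median difference was -0.03. The gene that fell, NFE2L2, encodes the regulator NRF2 and no enzyme, while the other 7, all enzyme genes, did not pass. NFE2L2 fell by 0.37 (limma adjusted p = 0.0188). That call failed in 4 of the 6 fits with an array removed (highest adjusted p 0.0772) and with the mean of its probe sets (adjusted p = 0.18). NQO1, the quinone reductase of the battery, differed by -0.20 (adjusted p = 0.13), with all treated arrays below the untreated ones, and passed with a trended robust variance (adjusted p = 0.0116). The UGT1A1 and UGT1A6 values are uncertain, since these genes share most of their exons.

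Of 13 measured genes often induced through AHR in other settings, 2 rose and 2 fell, or 30.8% called beside 8.50% of all genes. The median difference was -0.02. PTGS2, the inducible cyclooxygenase, was 3.28-fold higher (limma adjusted p = 2.1e-05), opposite in direction to CYP1B1. Its untreated mean of 4.19 lay near the median of all probe sets, 4.156, and its second probe set was 2.32-fold higher, so the size of this rise is uncertain. IL6 rose by 0.29 (limma adjusted p = 0.0499, failing whichever array was removed, with up to 0.162). FLG, the filaggrin gene, fell by 0.59 at levels below the median of all probe sets, a call that failed without untreated array 2 (adjusted p = 0.0523) and without both arrays numbered 1 (adjusted p = 0.083). CDKN1B, the cell cycle inhibitor p27, fell by 0.32, a call that failed whichever array was removed (highest adjusted p 0.104).

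**Figure D4:**
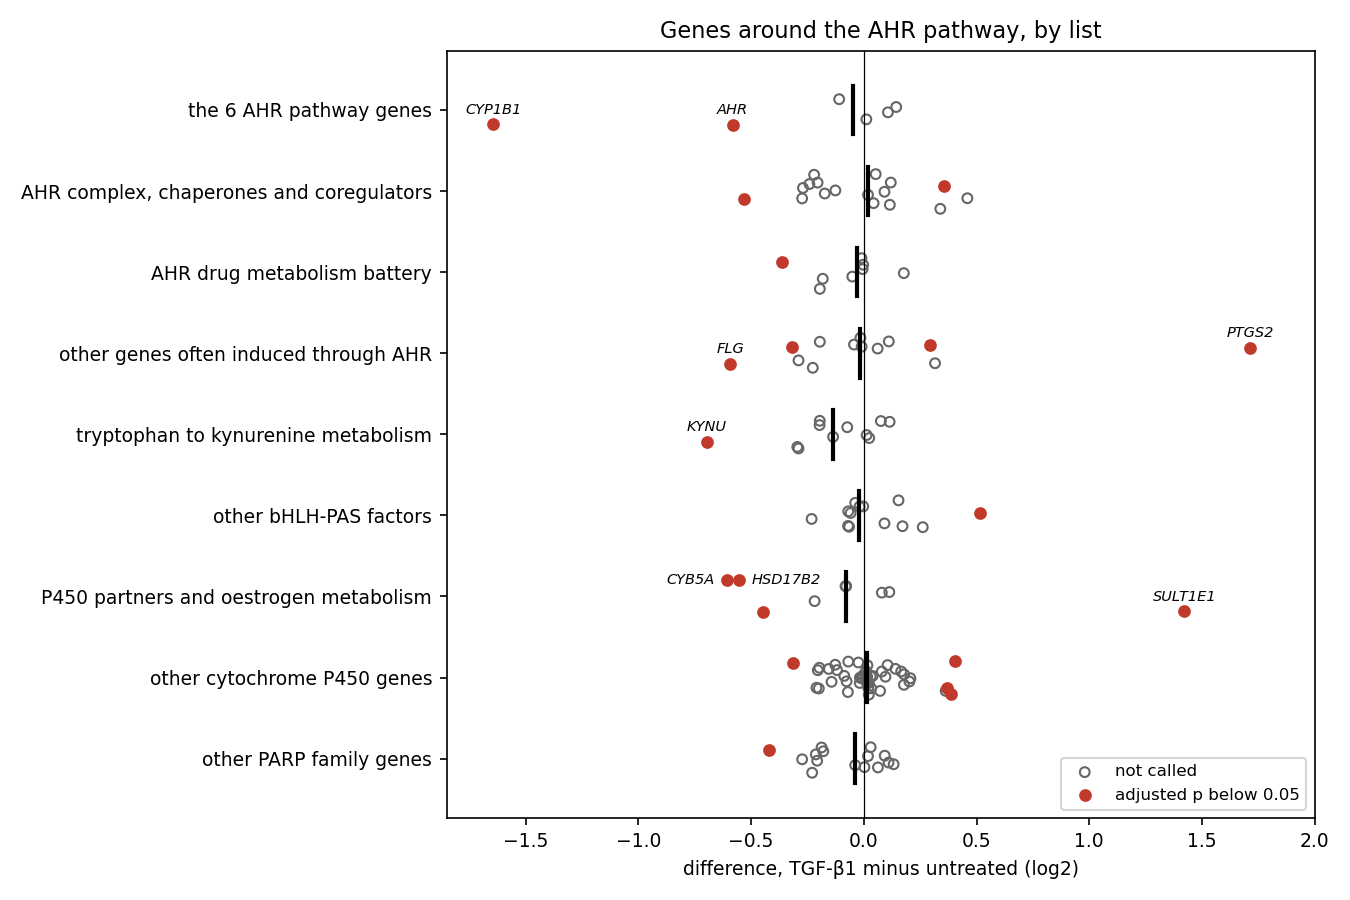
Difference between TGF-β1 and untreated arrays (log2) for each measured gene of the 6 members and of 8 lists around them, with red for an adjusted p below 0.05 and a black bar at the median of each list; gene names are given beyond a difference of 0.55 in either direction. CYP1B1 at -1.64 is the lowest point, PTGS2 at 1.71 the highest, and the medians lie between -0.14 and 0.02.

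Tryptophan breakdown supplies natural ligands of the receptor. Of 11 measured genes of this route 1 fell and 0 rose, or 9.09% called beside 8.50% of all genes. The median difference was -0.14. The fall was KYNU, the kynureninase that clears kynurenine. It read 10.5, 10.6 and 10.5 on untreated and 9.76, 9.81 and 9.97 on treated arrays, so the groups did not overlap. KYNU was 1.62-fold lower (difference -0.70 ± 0.083, SE, limma adjusted p = 0.0021), and all 4 of its probe sets passed on their own, with differences from -0.98 to -0.70. IDO1, which makes kynurenine in inflamed tissue, differed by -0.29 (adjusted p = 0.17) and TDO2 by 0.08 (adjusted p = 0.69). KYAT1, a kynurenine transaminase, differed by -0.30 (adjusted p = 0.12), by -0.34 with the 3′ to 5′ covariate, where it passed (adjusted p = 0.0326), and by -0.05 with the mean of its probe sets (adjusted p = 0.79).

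Genes that work beside CYP1B1 moved in both directions. Of 9 measured P450 partners and oestrogen-handling enzymes, 1 rose and 3 fell, or 44.4% called beside 8.50% of all genes. With 9 genes this share is a count, and the median difference was -0.08. CYB5A, the cytochrome b5 that passes electrons to P450 enzymes, fell from 8.59 ± 0.0898 to 7.98 ± 0.0917 (SD, n = 3 each), 1.52-fold (limma adjusted p = 0.0038). Its other 2 bright probe sets fell by 0.52 and 0.55. The dim set, which alone remains when sets with shared sequence are left out, differed by -0.07 (adjusted p = 0.77). POR, the reductase that every microsomal P450 needs, differed by -0.08 (adjusted p = 0.57).

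HSD17B2, which inactivates oestradiol, fell 1.47-fold, from 5.36 ± 0.141 to 4.81 ± 0.0576 (SD, n = 3 each, limma adjusted p = 0.0087). STS, the steroid sulfatase, fell by 0.45 (adjusted p = 0.0484), a call that failed in 5 of the 6 fits with an array removed (highest adjusted p 0.161). SULT1E1, the oestrogen sulfotransferase, rose by 1.42 (adjusted p = 9.8e-04), from readings of 2.78, 2.56 and 2.59 to 4.41, 3.88 and 3.91. Its second probe set rose by 0.75. That set becomes the representative without treated array 1, 2 or 3, when the fold falls from 2.68 to 1.69, 1.67 and 1.70. The untreated level lay far below the median of all probe sets, so the size of this rise is uncertain.

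Of 45 other cytochrome P450 genes measured, 3 rose and 1 fell, which is 8.89% called beside 8.50% of all genes, and the median difference was 0.01. Of the 45, 22 lay below the median of all probe sets and the highest mean level was 6.80, so many of these genes are too dim to show a fall as large as that of CYP1B1. CYP24A1, which breaks down active vitamin D, rose by 0.40, CYP27C1, a retinoid desaturase, by 0.39 and CYP26B1, which breaks down retinoic acid, by 0.37 (limma adjusted p = 0.0235, 0.0349 and 0.0397). CYP4F11 fell by 0.31 at levels far below the median of all probe sets (adjusted p = 0.0476). With single arrays removed, these 4 calls failed in 4, 5, 6 and 6 of the 6 fits (highest adjusted p 0.155), and the second CYP26B1 set differed by -0.11. The differences of the 45 ran from -0.31 to 0.40, beside -1.64 for CYP1B1, a description with no test.

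The genes whose values followed CYP1B1 most closely over the 6 arrays were TXNRD1, NEK4, BAG2, IFI16, INHBB and RNF138, taken by Pearson's r among the 13106 other genes with a mean above the median of all probe sets. Their r ran from 0.9976 to 0.9996. Each was lower on the treated arrays, from 1.22-fold for NEK4 to 2.49-fold for INHBB, an activin subunit gene. TXNRD1, which encodes thioredoxin reductase, had the highest r and was 1.51-fold lower (10.8 to 10.2, limma adjusted p = 0.0014). Since the arrays form 2 separate groups, such an r mostly reflects the gap between the groups: for deviations from the group means r was 0.919 for TXNRD1 and between -0.176 and 0.708 for the other 5. Picking genes by r on these same arrays also favours a high r of the deviations. These 6 arrays share all normalisation steps, and the likeness is a description.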

How the data were processed

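Per the submitters' processing notes, the authors made the deposited log2 values with Affymetrix Expression Console and RMA, which subtracts background, equalises the arrays and summarises each probe set. No tool version or option was given in the labels, and the log2 scale was read from their range. The 6 arrays had medians of 4.147 to 4.181. Arrays have no read depth, and their number limits the precision.

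Of 54675 probe sets, 62 were controls, 41091 carried 1 gene symbol, 1801 several and 11721 none, from the platform annotation. Single symbols were matched to RefSeq (GRCh38.p14), which changed 0 of them, and 54 probe sets without a match kept their symbol. The 41091 covered 19775 genes. Genome positions are printed only for promoter windows, since the annotation names no build.

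The main test was limma 3.58.1 in R 4.3.3 (lmFit, eBayes, no covariate, no filter), with p-values adjusted by Benjamini-Hochberg over the 19775 genes and called below 0.05. Values of single probe sets come from a fit over all 54613 that are not controls. The fit was tested on simulated data. The labels number the arrays 1 to 3 in each group. The main fit used no replicate block because the labels state no covariate, and the block was run as an alternative. Once group means were removed, arrays with the same number correlated at 0.181, 0.0392 and 0.0794. Of these, 2 lie below the minimum of 0.1 and that of the arrays numbered 1 lies above it.

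The members and lists were chosen with earlier results of these data known. Named list genes are the called members, up to 8 per list, or the 2 with the smallest p where fewer than 2 were called. Genes named beyond that rule (CYP1A2, the HSP90 genes, PTGES3, UGT1A1, UGT1A6, IDO1, TDO2, POR, HIF1A, CYP1B1-AS1 and the cell type markers) were picked with their values in view. The P450 list leaves out pseudogenes and antisense RNAs, the latter removed after the values were seen. Alternatives were a second quantile normalisation, centring on medians, 2 filters on dim genes, averaged probe sets, exclusion of suffixes _x_at and _s_at, single probe sets, a trended robust variance, array weights, a replicate block, a 3′ to 5′ covariate, and removal of single arrays or both arrays numbered 1.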

Additional observations from a re-analysis of the deposited data

How the results depend on the processing

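The calls of CYP1B1 and AHR held under each of their 17 and 18 alternatives, and CYP1A1, AHRR, ARNT and TIPARP passed under none of theirs. CYP1B1 could not be measured without suffixed probe sets, nor CYP1A1 among genes above the median. ARNT turned to 0.036 with the mean of its probe sets, and AHRR ran from -0.12 to 0.11 without single arrays; the cause was not tested. The number of changed genes was 1680. It was 995 without suffixed probe sets, where fewer genes are tested, 2629 with a trended robust variance, 628 without both arrays numbered 1 and 766 to 1319 without single arrays, where fewer arrays enter. The 18 changed list genes became 11 without suffixed sets, 9 with single probe sets, 6 without both arrays numbered 1 and 8 to 11 without single arrays. In the other direction, 27 list genes were changed with a trended robust variance and 22 among genes above the median. With a replicate block for pairing by number, 1280 genes and 14 list genes were changed, CYP1B1 differed by -1.64 (limma adjusted p = 9.9e-04) and AHR by -0.58 (adjusted p = 0.0236). Dim sets such as CYP1A1 limit what can be seen.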

Other observations

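Of 13 other bHLH-PAS factors, the family of AHR and ARNT, 1 rose and 0 fell, which is 7.69% called beside 8.50% of all genes, with a median of -0.02 (log2). The rise was BMAL1, the partner of CLOCK in the circadian clock, which read 7.39, 7.64 and 7.66 on untreated and 8.13, 7.99 and 8.10 on treated arrays, with no overlap. It was 1.43-fold higher (limma adjusted p = 0.0144), and its second probe set differed by 0.63 (adjusted p = 0.0808 over all probe sets). The call failed without treated array 3 (adjusted p = 0.0514) and without both arrays numbered 1 (adjusted p = 0.0757). SIM2 differed by 0.26 (adjusted p = 0.0997) and passed with the 3′ to 5′ covariate (adjusted p = 0.0453). HIF1A, the oxygen-regulated factor that also pairs with ARNT, differed by -0.07 (adjusted p = 0.62).

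Of 15 other PARP family genes, relatives of TIPARP, 1 fell and 0 rose, or 6.67% called beside 8.50% of all genes. The median difference was -0.04. PARP1, which senses DNA breaks, was 1.34-fold lower (9.28 to 8.86, limma adjusted p = 0.0238), a call that failed in 3 of the 6 fits with an array removed (highest adjusted p 0.0826). PARP14, a mono-ADP-ribosyltransferase like TIPARP, differed by -0.27 (adjusted p = 0.0724), and passed among genes above the median and with a trended robust variance (adjusted p = 0.0351 and 0.0403).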
